A study of Mus musculus with 6 samples.

Results

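Tip cell and sprouting genes were examined as a group of 10 genes, *Esm1*, *Apln*, *Aplnr*, *Cxcr4*, *Plaur*, *Kcne3*, *Pdgfb*, *Unc5b*, *Robo4* and *Cd34*, chosen by name, with earlier results of these data known, from the 56748 genes of the deposited count table. Each name matched 1 gene. The table holds RNA-Seq counts for endothelial cells (ECs) sorted from the spinal cords of mice at postnatal day (P) 16, from 3 control mice (genotype Tardbpflox) and 3 mice with EC-specific deletion of *Tardbp* (genotype Cdh5(PAC)-CreERT2;Tardbpflox, here called TDP-43iΔEC), with 1 library per mouse. All 6 mice carried the floxed *Tardbp* gene on a C57BL/6 background and received tamoxifen (1 mg/mL) once daily from P5 to P7. The genotype label of the controls names no Cre, so an effect of Cre itself cannot be told apart from the deletion, and Cre was driven by a *Cdh5* promoter transgene that acts in ECs in general and not in tip cells alone. Both sexes were used in the study.

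New capillaries grow when single ECs at the front of a sprout, the tip cells, extend filopodia and migrate along guidance cues, while the stalk cells behind them divide and form the lumen. Tip cells respond to VEGF-A and are marked by secreted factors such as ESM1, apelin and PDGF-B, by receptors such as CXCR4 and by proteases and their receptors that open a path through the matrix. ROBO4 and UNC5B are known from the opposite side of this balance, as endothelial receptors that restrain sprouting and stabilize vessels. In the central nervous system, sprouting declines as the vascular network matures in the postnatal weeks.

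The labels were checked with *Tardbp* itself. Its normalized counts (counts divided by DESeq2 size factors) were 1973 to 2282 among the controls and 433 to 982 among the TDP-43iΔEC mice, without overlap (log2 fold change -1.62, adjusted p = 0.287 from limma), although the antisense gene *Masp2* overlaps 33.1% of its exonic sequence. Libraries held 44041329 to 47270654 counts for the controls and 25704871 to 45010088 for the TDP-43iΔEC mice, and 3 counts corresponded to 0.0635 to 0.117 CPM (counts per 1000000 counts of the library). The 8 EC markers, led by *Cldn5*, summed to 9548 to 13369 CPM in control and 9544 to 12249.8 CPM in TDP-43iΔEC mice. Of 13107 genes tested with limma, 18 (0.137%) passed an adjusted p of 0.05. Every difference below compares whole populations of sorted ECs, in which fewer cells of a type and less RNA per cell cannot be told apart.

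None of the 10 genes passed the threshold of 0.05 in limma, where 9 could be tested and *Esm1* was left out by the filter on low counts. Over all tested genes, limma called 0.0305% higher and 0.107% lower in TDP-43iΔEC mice. By edgeR's quasi-likelihood test 0 of all tested genes passed, and so 0 members. There, 2 of the 9 genes had an unadjusted p under 0.05, beside 6.47% of all tested genes. By DESeq2's Wald test 2 of the 9 passed, *Apln* and *Plaur*, both higher, where 1.91% of all tested genes passed and 0.816% passed as higher. In DESeq2, 3 of the 9 had an unadjusted p under 0.05, beside 8.49% of all tested genes. At an unadjusted p under 0.05, limma gave 3 of the 9 genes, *Apln*, *Plaur* and *Kcne3*, all higher, beside 9.27% of all tested genes in either direction and 4.26% as higher. These 3 were also the genes whose groups did not overlap. Among all tested genes, 7.93% lay without overlap as higher and 7.1% as lower. *Kcne3* passed the filter only through its counts in TDP-43iΔEC mice, so its place among the 9 rests on the group in which it was high. The fold change was above 1 for 5 of the 9 genes and for 49.3% of all tested genes, and the median log2 fold change was 0.29 for the 9 genes and -0.02 for all.

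**Figure D1:**
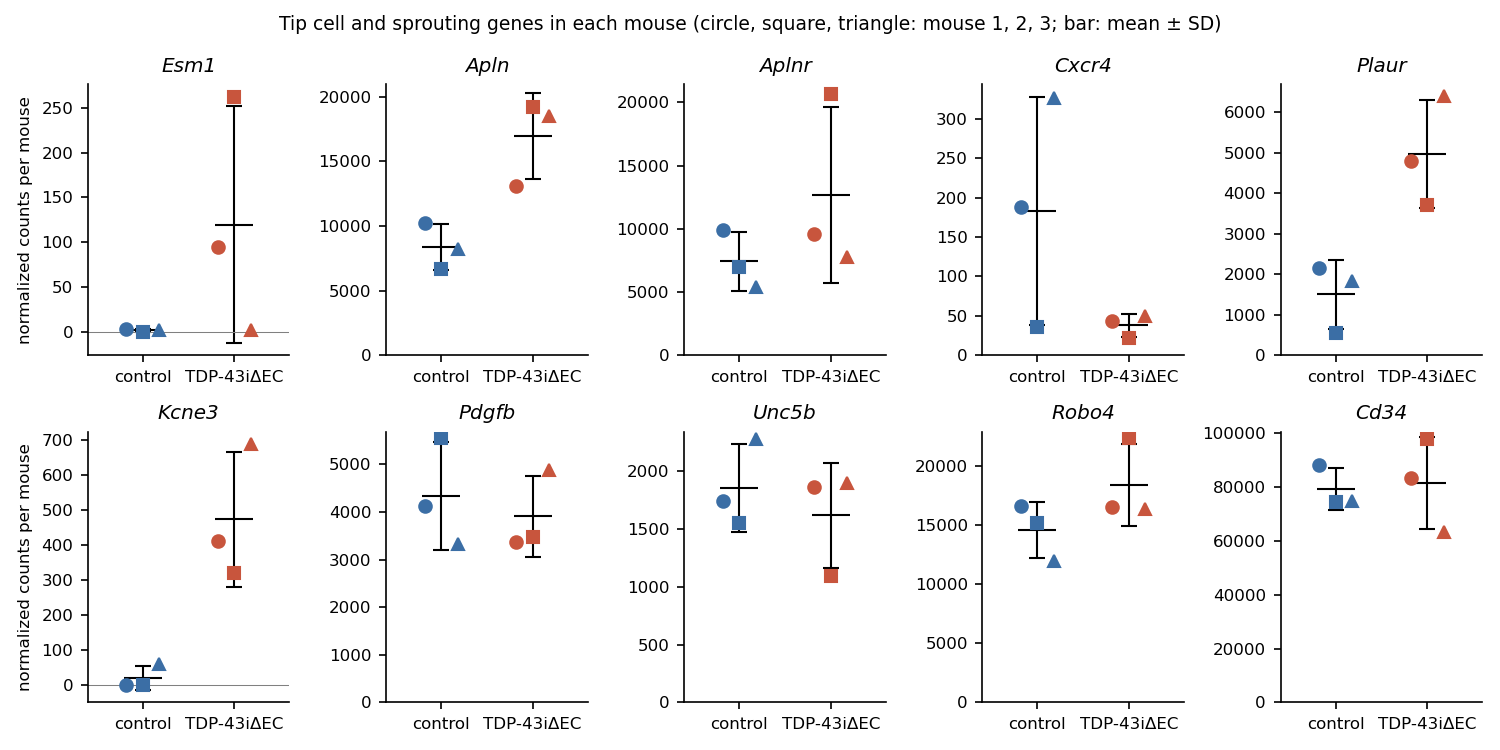
Normalized counts of each of the 10 genes (vertical axes, linear, a separate scale per gene) in the 3 control mice (blue) and the 3 TDP-43iΔEC mice (red), with bars for the mean ± SD. All 3 TDP-43iΔEC mice lie above all 3 control mice for *Apln*, *Plaur* and *Kcne3*, and the groups overlap for the other 7 genes.

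Among the secreted factors, apelin mRNA was about 1.93-fold as abundant in TDP-43iΔEC mice. *Apln* (identifier ENSMUSG00000037010.8, minus strand of chromosome X from 47114019 to 47123775 in GRCm39) encodes the precursor of the peptide apelin, which tip cells release and which acts on the apelin receptor of neighbouring ECs. Normalized *Apln* counts were 10199.8, 6653 and 8244 for controls 1, 2 and 3, and 13129, 19195.5 and 18505 for TDP-43iΔEC mice 1, 2 and 3, an order of mice kept throughout. The lowest TDP-43iΔEC value, that of mouse 1, lay above the highest control value, that of mouse 1. Group means stood at 8366 ± 1777 and 16943 ± 3321 (SD, n = 3 mice each). The log2 fold change was 0.95, with a 95% confidence interval from 0.43 to 1.46. By its p value *Apln* ranked 124 of 13107 genes in limma, and its adjusted p was 0.271 from limma, 0.373 from edgeR and 0.00398 from DESeq2. A 2-sided exact permutation test gave p = 0.1, the smallest value that 3 mice against 3 allow.

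*Aplnr*, which encodes the G protein-coupled receptor for apelin (chromosome 2, 84966569 to 84970267), was at 9938, 6979.6 and 5354 normalized counts in the controls. The TDP-43iΔEC mice had 9553, 20636 and 7778. The groups overlapped, and the highest value, that of TDP-43iΔEC mouse 2, was the only one of the 6 that stood far above the others. The fold change was 1.56, with a 95% confidence interval from 0.877 to 2.76 (log2 fold change 0.64, adjusted p = 0.602 from limma). Without TDP-43iΔEC mouse 2, the log2 fold change of *Aplnr* was 0.25. *Apela*, the gene of the other known ligand of this receptor, had 0 counts in every library.

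*Plaur* (identifier ENSMUSG00000046223.11, plus strand of chromosome 7 from 24161875 to 24175394) encodes the cell surface receptor of urokinase, which concentrates plasmin formation and matrix breakdown at the leading edge of migrating cells. Normalized *Plaur* counts were 2145, 543 and 1829.97 for the controls and 4791, 3718 and 6389 for the TDP-43iΔEC mice. Control mouse 2 was the lowest, well under the other two of its group, and the 3 TDP-43iΔEC values lay above all control values. Group means stood at 1506 ± 849 and 4966 ± 1344 (SD, n = 3 mice each). The fold change was 3.59 with a 95% confidence interval from 1.69 to 7.60 (log2 fold change 1.84, adjusted p = 0.296 from limma, 0.456 from edgeR and 0.0447 from DESeq2). With control mouse 2 left out, the log2 fold change was 1.21.

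Because *Apln* and *Plaur* lay apart in the same direction, the DNA just before their starts is shown, from the RefSeq promoter table, which held 8 of the 10 genes. The 250 bases before each RefSeq start were matched to GRCm39, each at 1 place, and trimmed to the part outside annotated exons. Both stretches are printed in the direction of the gene, with capitals for matches to the searched motifs. These are chrX:47123776-47123980 on the minus strand for *Apln* and chr7:24161658-24161874 on the plus strand for *Plaur*.
Apln: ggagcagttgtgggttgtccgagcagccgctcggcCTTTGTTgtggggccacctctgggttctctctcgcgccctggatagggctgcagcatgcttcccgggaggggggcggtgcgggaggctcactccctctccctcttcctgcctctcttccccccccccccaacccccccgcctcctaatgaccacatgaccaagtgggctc
Plaur: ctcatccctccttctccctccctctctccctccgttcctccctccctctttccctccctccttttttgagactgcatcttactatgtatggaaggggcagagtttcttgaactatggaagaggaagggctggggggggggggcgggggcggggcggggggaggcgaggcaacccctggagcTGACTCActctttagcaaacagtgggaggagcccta
The 250-base windows were searched on both strands for ACGTG, the core of the hypoxia response element, for TGANTCA, bound by AP-1 factors, for an NF-κB-like site and for CTTTGNT, bound by TCF/LEF factors. *Apln* held 1 TCF/LEF match, a motif present in 16.0% of 32851 RefSeq promoter windows of the same length. *Plaur* held 1 AP-1 match, present in 6.75% of the windows. The hypoxia response core (16.6% of windows) was found in *Kcne3* alone of the 8 genes, together with an AP-1 match, and the NF-κB-like site (1.41%) in none. *Kcne3* was the only gene of the 8 with 2 windows, and both of its matches lay in the same window. The matches are a description of these letters and no evidence of binding.

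*Kcne3* (identifier ENSMUSG00000035165.15, chromosome 7 from 99825401 to 99836141) encodes a small accessory subunit of voltage-gated potassium channels and is a tip cell marker in the developing retina. Raw *Kcne3* counts were 0, 0 and 75 for the controls and 543, 268 and 486 for the TDP-43iΔEC mice. After normalization these were 0, 0 and 60.9 against 412, 319.6 and 689.7. The gene was thus counted in 1 of 3 control libraries and in all 3 TDP-43iΔEC libraries, at low levels throughout. The fitted log2 fold change of 7.53 (95% confidence interval from 2.78 to 12.3, adjusted p = 0.341 from limma) depends on how counts of 0 are treated, and the ratio of the group means was 23.3. DESeq2 gave an adjusted p of 0.350 and edgeR of 0.894. Antisense genes overlap 3.71% of its exonic sequence. Over the 6 libraries, the 5 genes with the most similar pattern, measured as the smallest root mean square difference of mean-centred log2 CPM among 10834 genes, were *Siah1b* (0.62), *Kif15* (0.67), *Ulbp1* (0.69), *Emid1* (0.79) and *Serpina3g* (1.03). None of these 5 passed the threshold in limma, with adjusted p from 0.360 to 0.435. They were chosen for their pattern over the same libraries, so these values are no separate result.

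*Esm1* (chromosome 13, 113346021 to 113354632), which encodes the secreted proteoglycan endocan, is among the sharpest markers of VEGF-A-stimulated tip cells. It was barely counted in control mice, with 4, 0 and 2 counts. TDP-43iΔEC mice 1 and 2 had 125 and 220 counts, or 2.78 and 7.79 CPM, and TDP-43iΔEC mouse 3 had 1 count. The groups therefore overlapped, and more than 4 counts were seen only in TDP-43iΔEC mice 1 and 2 of the 6. With the filter removed, the fitted log2 fold change was 4.78 (SE 1.97, adjusted p = 0.590 from limma), a value that rests on very low counts. With the filter kept, *Esm1* passed it when control mouse 1, 2 or 3 was left out, with log2 fold changes of 5.42, 3.91 and 4.98. It also passed without TDP-43iΔEC mouse 3, at 6.51, but not without TDP-43iΔEC mouse 1 or 2. In these fits *Esm1* passed only through its counts in TDP-43iΔEC mice, so the direction rests on the group in which it was high. Their SE ran from 2.02 to 3.16 and their adjusted p from 0.543 to 0.695 in limma.

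*Pdgfb*, which encodes the growth factor by which sprouting ECs recruit pericytes (chromosome 15, 79880009 to 79899181), was at 4128, 5561 and 3323 normalized counts in the controls. The TDP-43iΔEC mice had 3373, 3473 and 4883. The groups overlapped, with a fold change of 0.867 and a 95% confidence interval from 0.571 to 1.32 (adjusted p = 0.819 from limma). Its receptor gene *Pdgfrb*, expressed by pericytes and not ECs, had 708, 0 and 876 raw counts in the controls and 681, 1595 and 826 in the TDP-43iΔEC mice (adjusted p = 0.608 from limma).

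*Cxcr4*, which encodes the receptor through which tip cells follow the chemokine CXCL12 (chromosome 1, 128515936 to 128520044), was the member with the lowest fold change and was weakly expressed. Normalized *Cxcr4* counts were 188, 35.6 and 326 for the controls and 43.2, 21.5 and 49.7 for the TDP-43iΔEC mice. Control mouse 2 fell within the range of the TDP-43iΔEC mice, so the groups overlapped. The log2 fold change was -1.90, with a 95% confidence interval from -5.72 to 1.92 (adjusted p = 0.720 from limma), which spans large changes in both directions. The genes with the most similar pattern to *Cxcr4* were *Med27* (0.58), *Hoxb9* (0.61), *Prr18* (0.63), *Map7* (0.65) and *Wdr89* (0.67), by the same measure, with adjusted p from 0.611 to 0.819 in limma. These genes too were chosen for their pattern over the same libraries.

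For the 2 receptors that restrain sprouting, the groups overlapped and the intervals included no change. *Robo4* (chromosome 9, 37313193 to 37326411), the endothelial member of the roundabout family, was at 16609.5, 15215 and 11947 normalized counts in the controls and 16525, 22414 and 16349 in the TDP-43iΔEC mice. Its fold change was 1.22, with a 95% confidence interval from 0.912 to 1.64 (adjusted p = 0.631 from limma). *Unc5b* (chromosome 10, 60598372 to 60667396), which binds netrins and ROBO4, was at 1736, 1549.7 and 2279.6 normalized counts in the controls and 1861, 1096 and 1893 in the TDP-43iΔEC mice. Its fold change was 0.845, with a 95% confidence interval from 0.492 to 1.45 (adjusted p = 0.835 from limma). TDP-43iΔEC mouse 2 was the highest of the 6 mice for *Robo4* and the lowest for *Unc5b*.

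*Cd34* (chromosome 1, 194621029 to 194647172), which encodes a sialomucin of the EC surface that is enriched on tip cell filopodia but made by capillary ECs in general, had the smallest fold change of the 9 tested. Normalized *Cd34* counts were 88386, 74475 and 74965 for the controls and 83544, 97684 and 63327 for the TDP-43iΔEC mice, so that the TDP-43iΔEC mice held both the highest and the lowest value. The fold change was 1.00, with a 95% confidence interval from 0.788 to 1.27 (adjusted p = 1.00 from limma). Its direction changed with the test, the scaling, the filter and the mice included, with log2 fold changes from -0.12 without TDP-43iΔEC mouse 2 to 0.23 with scaling to the EC markers.

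**Figure D2:**
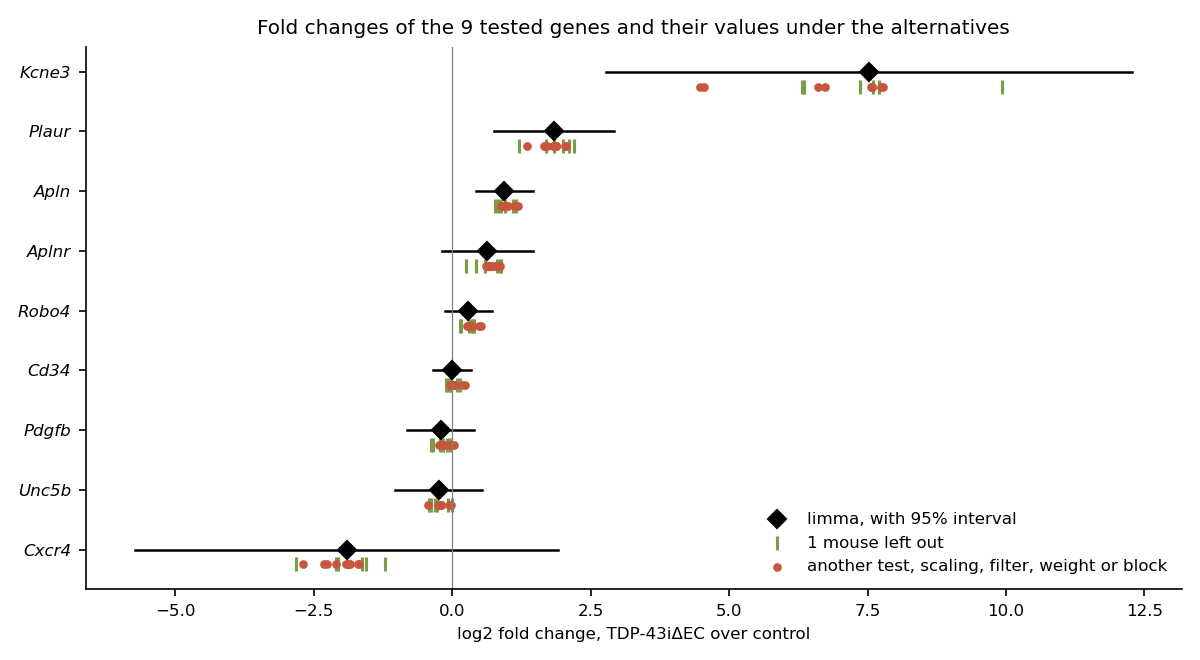
Log2 fold change of TDP-43iΔEC over control mice (horizontal axis) for the 9 tested genes, as limma estimates with 95% confidence intervals (black), values with 1 mouse left out (green ticks) and values under another test, scaling, filter, weighting or block (red points). The intervals of *Apln*, *Plaur* and *Kcne3* lie above 0 and the other 6 include it.

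Per kilobase of exonic sequence (GENCODE M39), the 10 genes spanned more than 3 orders of magnitude in control mice. *Cd34* was the highest, with 6628 ± 660 normalized counts per kb (SD, n = 3 mice), above 98.6% of the tested genes. *Robo4*, *Apln* and *Aplnr* followed at 2752 ± 451, 2211 ± 469 and 2007 ± 628 per kb, and the ranges of neighbours in this order overlapped, so that their order is not resolved. *Pdgfb* (1021 ± 267 per kb) lay below these and above *Plaur* (377 ± 212) and *Unc5b* (295 ± 60.2), whose ranges overlapped. *Cxcr4* came next by its mean at 101 ± 79.8 per kb, above 50.6% of the tested genes, though its range overlapped that of *Plaur*. *Kcne3* (2.96 ± 5.13) and *Esm1* (0.727 ± 0.733) were last, above 2.66% and 0.505%, with overlapping ranges. In TDP-43iΔEC mice, *Apln* ranked 2 at 4478 ± 878 per kb, *Plaur* ranked 5 at 1242 ± 336 per kb and *Cxcr4* last at 20.9 ± 8.11 per kb. This order is not resolved either, since the range of *Apln* overlapped those of *Robo4* and *Aplnr*, that of *Aplnr* overlapped that of *Cd34*, that of *Plaur* overlapped that of *Pdgfb*, and that of *Cxcr4* lay within that of *Esm1*.

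**Figure D3:**
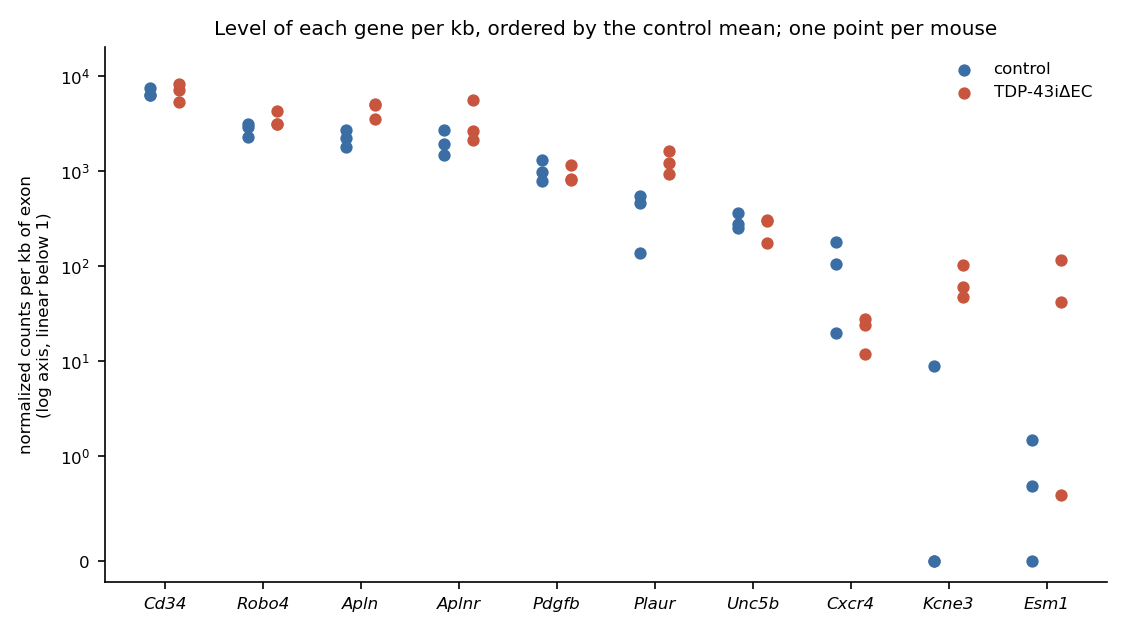
Normalized counts per kb of exonic sequence (vertical axis, logarithmic above 1 and linear below) for the 10 genes in order of their control mean, with 1 point per control mouse (blue) and per TDP-43iΔEC mouse (red). *Cd34* has the highest mean in both groups, though in TDP-43iΔEC mice the highest *Aplnr* point (5579) lies above the lowest *Cd34* point (5294). *Kcne3* and *Esm1* include points at or near 0 in control mice.

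The mice differed within each group. TDP-43iΔEC mouse 2 had the highest value of the 6 mice for 5 of the 10 genes, *Esm1*, *Apln*, *Aplnr*, *Robo4* and *Cd34*. Control mouse 2 had the lowest value for 3, *Apln*, *Plaur* and *Esm1*, the last at 0 counts, and shared the lowest *Kcne3* count, 0, with control mouse 1. Its library also had the fewest genes detected, 12972, against 16557 and 16123 in controls 1 and 3 and 14103 to 15379 in TDP-43iΔEC mice. The part of this in its low values was not tested. Control mouse 3 was also the lowest for 3, *Aplnr*, *Pdgfb* and *Robo4*. The highest *Pdgfb* value was that of control mouse 2, and the highest *Unc5b* and *Cxcr4* values were those of control mouse 3. Of all pairs of the 9 tested genes, *Robo4* and *Cd34* differed least in their mean-centred log2 profiles (root mean square difference 0.22).

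The genes that act with the members were counted from a list of 38 ligands, receptors and partners, of which 23 could be tested. In limma 0 passed the threshold (0 in edgeR and 3 in DESeq2, *Cxcl12*, *Serpine2* and *Kcnq1*, all lower, where DESeq2 called 1.09% of all tested genes lower), 6 were lower and 0 higher at an unadjusted p under 0.05, where 5% of all tested genes were lower at that level, and the median log2 fold change was -0.53, beside -0.02 for all tested genes. *Slit2*, 1 of these 6, passed the filter only through its counts in control mice, so its place rests on the group in which it was high. By the size of the fitted change, *Itgb3* (5.57), *Pdgfrb* (3.94) and *Lrp1* (2.85) were at the upper end and *Slit2* (-6.73), *Plau* (-2.64) and *Slit3* (-1.85) at the lower end on the log2 scale, each with 0 counts in at least 1 library and adjusted p from 0.471 to 0.868 in limma. The following genes were singled out after their values were seen. *Cxcl12*, the ligand of CXCR4, was at 162790.0, 150057 and 99419 normalized counts in the controls and 82245.5, 81792 and 67644 in the TDP-43iΔEC mice, without overlap (fold change 0.564, 95% confidence interval 0.420 to 0.757, adjusted p = 0.250 from limma, 0.373 from edgeR and 0.00457 from DESeq2). *Ackr3*, the scavenging receptor for the same ligand, was at 5099, 7113 and 4526 in the controls and 1707, 3057 and 717 in the TDP-43iΔEC mice, also without overlap (fold change 0.290, adjusted p = 0.270 from limma, 0.443 from edgeR and 0.0636 from DESeq2).

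*Kcnq1*, a channel subunit with which the KCNE3 protein assembles, lay in the other direction from *Kcne3*. Normalized *Kcnq1* counts were 4864, 4508 and 2535 for the controls and 1717, 1165 and 1635 for the TDP-43iΔEC mice, without overlap (fold change 0.386, adjusted p = 0.319 from limma, 0.364 from edgeR and 0.0173 from DESeq2), though antisense genes, *Kcnq1ot1* among them, overlap 23.5% of its exonic sequence. Of the urokinase system, *Plau* itself had at most 86.5 normalized counts in any mouse, while the tissue plasminogen activator gene *Plat* had 30838 and 32277 on average in control and TDP-43iΔEC mice (adjusted p = 0.927 from limma). *Serpine2*, which encodes an inhibitor of these proteases, was at 18082, 23469 and 19062 normalized counts in the controls and 8619.5, 7643 and 12322 in the TDP-43iΔEC mice, without overlap (fold change 0.446, adjusted p = 0.101 from limma, 0.297 from edgeR and 0.000852 from DESeq2).

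**Figure D4:**
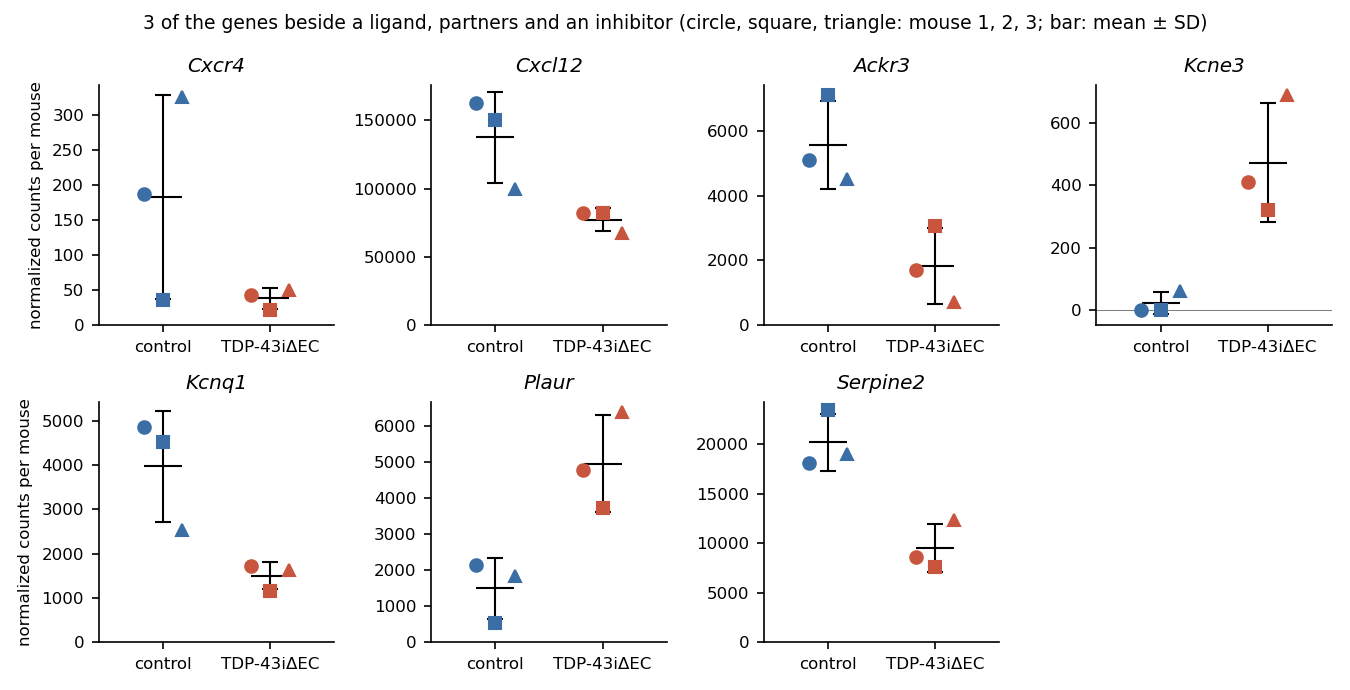
Normalized counts (vertical axes, linear, a separate scale per gene) of *Cxcr4*, *Kcne3* and *Plaur* beside genes of a ligand, a scavenging receptor, a channel partner and a protease inhibitor, in 3 control mice (blue) and 3 TDP-43iΔEC mice (red), with bars for the mean ± SD. *Cxcl12*, *Ackr3*, *Kcnq1* and *Serpine2* are lower in every TDP-43iΔEC mouse than in every control mouse, and *Kcne3* and *Plaur* are higher.

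Of 25 other genes known to be enriched in tip cells, 23 could be tested and 2 passed the threshold in limma, both higher, where 0.0305% of all tested genes were called higher. The list was drawn up with earlier results of these data known, so its count is no independent evidence. The genes were *Angpt2*, which encodes an antagonist of the TIE2 receptor (7823, 7415 and 4749.8 normalized counts in the controls against 18671, 26391 and 23769.8, log2 fold change 1.74, adjusted p = 0.0318 from limma, 0.112 from edgeR and 1.51e-09 from DESeq2), and *Adm*, which encodes adrenomedullin (3560.5, 3382 and 4148 against 12169.5, 10214 and 13768, log2 fold change 1.66, adjusted p = 0.0269 from limma, 0.105 from edgeR and 2.64e-12 from DESeq2). Antisense genes overlap 70.7% of the exonic sequence of *Angpt2* and 31.9% of that of *Adm*, and the library method is not described as keeping the strand. With any 1 mouse left out, 0 genes of this list passed. *Trp53i11* had the next highest log2 fold change, 1.03 (adjusted p = 0.360 from limma), and *Ednrb*, *Flt4* and *Dll4* the lowest, at -5.14, -0.73 and -0.53 (adjusted p from 0.488 to 0.572). The median log2 fold change of the 23 genes was 0.09. A list of 18 stalk and quiescence genes, all tested, held 0 genes past the threshold. In it, 4 log2 fold changes were above 0 and 14 below, beside 49.3% above 0 over all tested genes, and the median was -0.29, beside -0.02. The 8 EC markers, which share *Flt1* and *Tie1* with it, leaned the same way, with 1 above 0, 7 below and a median of -0.19. In the stalk and quiescence list *Flt1*, which encodes a decoy receptor for VEGF-A, had the lowest adjusted p (log2 fold change -0.69, adjusted p = 0.0635 from limma, 0.353 from edgeR and 7.9e-06 from DESeq2). The largest fitted changes there, at -2.03 for *Dll1*, -1.22 for *Smad6*, 1.13 for *Hey2* and 0.95 for *Nrarp*, belonged to genes with at most 629 counts in any library (adjusted p from 0.797 to 0.924 in limma), and *Jag1* was at 0.27.

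**Figure D5:**
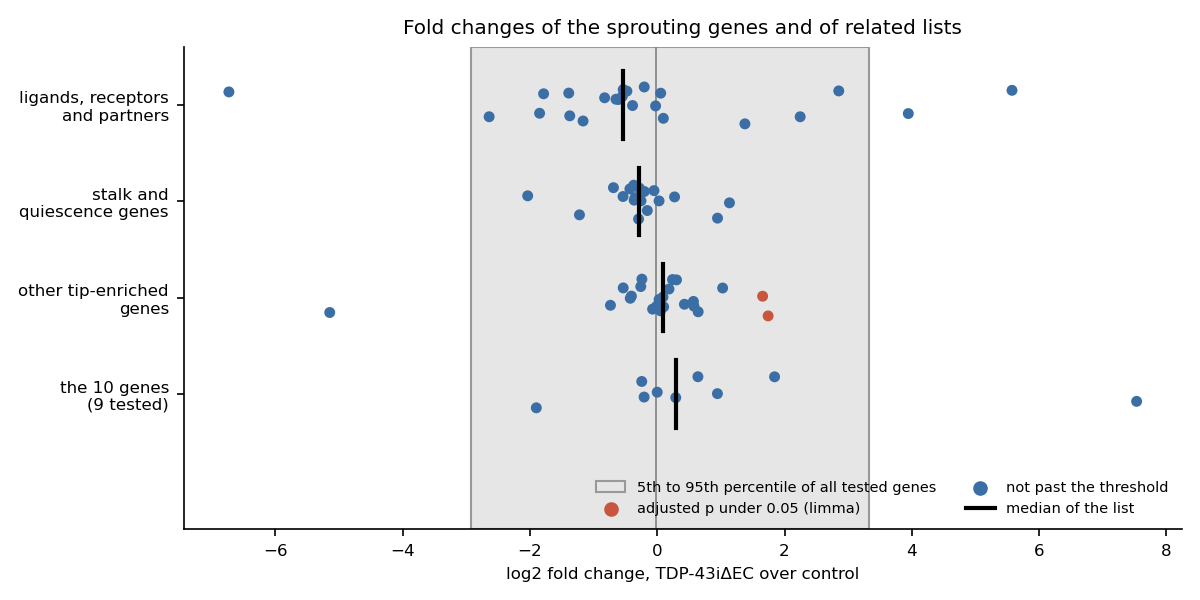
Log2 fold change of TDP-43iΔEC over control mice (horizontal axis) for each tested gene of the 10 tip cell and sprouting genes and of 3 related lists, with red for an adjusted p under 0.05 in limma, black bars for list medians and a grey band from the 5th to the 95th percentile of all tested genes (-2.92 to 3.32). The 2 red points are *Angpt2* and *Adm*.

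Several members are also made by other cells of the spinal cord, and markers of those cells were summed in each library. The antibodies listed for the sort were against CD31, which ECs carry, and against CD45 and TER-119, which label leukocytes and erythroid cells, though the gates themselves are not described. The 13 leukocyte and microglia markers, relevant to *Plaur*, *Cxcr4* and *Cd34*, summed to 0 to 2.84 CPM in control and 0.267 to 10.4 CPM in TDP-43iΔEC mice, and *Itgam*, *Adgre1*, *S100a8* and *S100a9* were at 0 in every library. *Plaur* itself had 13.5 to 58.6 CPM in control mice and 110 to 175 CPM in TDP-43iΔEC mice. The 8 mural cell markers summed to 507 to 893 and 430 to 1079 CPM. Neuronal markers (6 genes) summed to 4.995 to 11.1 CPM in control and 0.815 to 2.16 CPM in TDP-43iΔEC mice, and fibroblast markers (6 genes) to 50.5 to 61.2 and 62.7 to 109 CPM, each without overlap. Both lists held genes in either direction. *Rbfox3* had 0 to 0.0454 CPM in control and 0.567 to 1.95 CPM in TDP-43iΔEC mice, while *Map2* had 8.74 CPM in control mouse 2 alone. *Col3a1* had 14.0 to 20.3 CPM in control and 45.9 to 65.2 CPM in TDP-43iΔEC mice, while *Lum* and *Pdgfra* had 0 counts in every TDP-43iΔEC library. The part of neurons and fibroblasts in the values of *Cxcr4*, which had 0.882 to 8.50 and 0.638 to 1.36 CPM, was not tested. The 5 erythroid genes summed to 6336 to 9759 CPM in control and 2197 to 2909 CPM in TDP-43iΔEC mice, also without overlap, and 4 of them passed the threshold in limma as lower. The share of counts on the ribosomal RNA gene *Rn18s-rs5* was 14.8 to 18.5% in control and 8.04 to 13.6% in TDP-43iΔEC mice, without overlap. With ribosomal RNA, hemoglobin and mitochondrial genes left out of the fit, 0 members passed the threshold, as before. The 6 oligodendrocyte lineage markers summed to 288 to 546 and 15.7 to 503 CPM, and 5 astrocyte markers to 15.4 to 26.9 and 0.506 to 27.7 CPM.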

How the data were processed

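The authors mapped SMARTseq2 reads to GRCm39 with STAR 2.7.8a and quantified GENCODE M30 genes with RSEM 1.3.0. The deposited values are estimated counts per gene in whole numbers, unscaled and unfiltered, 1 column per mouse. Without molecular identifiers, PCR copies were counted as separate reads. Each library gives counting precision only. The p values measure the spread between mice together with that of library preparation, which 1 library per mouse cannot separate. The paper gives a range of RNA input and differing numbers of PCR cycles, but not the values of each library.

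TDP-43iΔEC and control mice were compared in R 4.3.3 with limma 3.58.1 (voom, empirical Bayes), the method of the paper, on genes kept by filterByExpr and scaled by TMM in edgeR 4.0.16. P values were adjusted by Benjamini-Hochberg over all 13107 tested genes. Size factors came from DESeq2 1.42.0. The edgeR and DESeq2 tests were alternatives. Positions, lengths and overlaps came from GENCODE M39, which held 99.6% of the tested genes. The procedures were tested on simulated counts. Members and lists were chosen with earlier results of these data known. Genes named are all members, *Tardbp*, the called genes and the 3 highest and 3 lowest fold changes of each list, and for the members with the highest and the lowest fold change the 5 genes of most similar pattern (mean normalized count of at least 100), except where stated.

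Alternatives were other tests, scalings and filters, sample weights, left-out gene classes, a replicate block and each mouse left out. Whether mice shared litters is not stated.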

Additional observations from a re-analysis of the deposited data

How the results depend on the processing

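The 9 tested members were recomputed under up to 16 alternatives, 143 values in all, of which 130 kept their direction and their side of the threshold. DESeq2's Wald test moved 2 members past it, *Apln* (log2 fold change 1.02) and *Plaur* (1.72). *Pdgfb* turned positive (0.027) when scaled to the endothelial markers. *Cd34*, near 0, turned positive with edgeR (0.000615), DESeq2 (0.040), DESeq2 size factors (0.037), library size only (0.18), endothelial marker scaling (0.23), no filter (0.018), at least 10 counts in every library (0.020) and ribosomal RNA, hemoglobin and mitochondrial genes left out (0.033), and without control mouse 1 (0.084) or TDP-43iΔEC mouse 3 (0.14). The filter on 10 counts left no value for *Kcne3*. Scaling by library size only and to endothelial markers moved the median of all genes from -0.02 to 0.18 and 0.22, so that the members' median of 0.48 and 0.52 there, against 0.29, is a shift shared with all genes.

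The number of genes past the threshold, 18 with limma, was 0 with edgeR (848 at an unadjusted p under 0.05), 250 with DESeq2, 10 by library size only, 1 with endothelial marker scaling, 76 without a filter and 39 with at least 10 counts in every library. With a mouse left out it was 0 to 13, namely 3, 10 and 13 without control mouse 1, 2 and 3, and 0, 3 and 2 without TDP-43iΔEC mouse 1, 2 and 3. The other tip-enriched genes went from 2 to 0 with edgeR, 1 with endothelial marker scaling and 0 to 0 with a mouse left out. From 0, the stalk list went to 1 with DESeq2 and 1 without a filter, and the partner list to 3 with DESeq2 and 1 without a filter, with at least 10 counts and with the replicate block, and 0 to 1 with a mouse left out. The causes were not tested.

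When 1 mouse at a time was left out, log2 fold changes ranged from 0.77 to 1.15 for *Apln*, 1.21 to 2.21 for *Plaur*, 6.32 to 9.93 for *Kcne3*, 0.25 to 0.87 for *Aplnr*, -2.82 to -1.21 for *Cxcr4*, -0.38 to -0.035 for *Pdgfb*, -0.42 to -0.0097 for *Unc5b*, 0.15 to 0.39 for *Robo4* and -0.12 to 0.14 for *Cd34*, and 0 members passed the threshold each time. The members' median ranged from 0.15 to 0.63, but not over the same genes. *Esm1* passed the filter without control mouse 1, 2 or 3 or TDP-43iΔEC mouse 3, so those medians cover 10 members and not 9. Summed CPM of all other-cell markers was lower in TDP-43iΔEC mice by a difference of -5576 CPM, and -157 CPM without the erythroid genes, with -6461 to -4460 CPM as a mouse was left out. Between same-numbered mice, deviations from the group means correlated at -0.07, -0.13 and -0.02. With 3 mice per group, these values cannot decide whether the mouse numbers pair samples. A replicate block on the mouse numbers gave 22 genes and 0 members past the threshold. *Esm1* in the controls, with 0 to 4 counts, and *Kcne3* in control mice 1 and 2, with 0 counts, lay at or near the limit of detection. Counts of 0 also occurred for genes with high counts in other libraries. The mural marker *Kcnj8* had 1785, 0 and 3219 raw counts in the controls and 0, 2896 and 1642 in TDP-43iΔEC mice. A count of 0 therefore need not mean that the RNA was absent, and its cause was not tested.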
